A study of Mus musculus with 12 samples.

Results

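The genes of oxidative phosphorylation, encoded in the nucleus and in the mitochondrial genome, were followed in mouse embryonic stem cells with and without Dicer, the enzyme that dices precursors into miRNAs and siRNAs. Members were chosen by name, as protein-coding genes whose symbols begin with Nduf, Uqcr, Sdh, Atp5, mt- or Cox4 to Cox8. Of the 47643 gene rows, 110 matched, and the 105 with at least 120 counts over the 12 libraries were kept. Of these, 92 are nuclear and 13 mitochondrial. The rule used no difference between groups. Just inside the minimum were Ndufa4l2 (313 counts), Cox7b2 (369) and Ndufaf3 (371), and just outside it Cox4i2 (93), Ndufaf8 (86) and Cox8c (34). Cox6a2 (14 counts) and Cox8b (0) were also left out. Cox7b2 passed the minimum through KO and 41585, with 57 counts in the other 8 libraries, and Ndufa4l2 through the others, with 53 counts in KO and 41585. All 105 kept members were among the 14629 genes that passed the filter on low counts and were tested.

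The libraries are poly(A) RNA of E14 cells, a line of the 129/Ola background, in 6 groups of 2. The groups are WT, the Dicer knockout (KO), the line 41584 that is labelled as resembling WT, the line 41585 that makes neither miRNAs nor siRNAs, the line 41589 that makes no siRNAs, and the line SOM. The 4 named lines are Dicer-complemented, per the series title. The labels do not say what SOM can process, which stretch of Dicer1 was deleted, which sequence was put back or whether a line is 1 clone. Every group was kept on gelatin in 15% serum, 100 U/mL LIF and 1 µg/mL puromycin. The 2 libraries of a group are not said to be separate cultures, so every p-value measures only the spread between these libraries.

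Each library held 5348401 to 10428509 counts. Dicer1 stood at 197 and 214 CPM (counts scaled to library size with TMM factors) in WT, at 105 and 215 in SOM and at 27.8 to 55 in the 8 libraries of KO, 41584, 41585 and 41589. With the deleted stretch not given, counts over the whole gene check the labels only in part. The 8 markers of embryonic stem cells summed to 5860.9–7108.2 CPM in WT, 41584 and 41589 and to 6666.1–7389.1 in KO and 41585, a sum led by Dppa5a. Of the 8, Dppa5a (log2 fold 0.59) and Pou5f1 (0.89) were higher in KO and 41585, and Klf4 (−2.19) and Zfp42 (−0.50) lower. Trophectoderm markers summed to 10.4–28.5 and 49–277 CPM in the same order, with Krt8, Krt18 and Elf5 higher, Eomes lower and Cdx2 at no more than 0.244 CPM. Primitive endoderm markers summed to 5.02–34 and 4.93–8.75 CPM, and 3 of 4 tested were lower (Gata6, Sox7 and Pdgfra). The lists of fibroblast, muscle and testis germ cell markers summed to at most 27.5 CPM, and the part of any other cell type in the results below was not tested. In bulk RNA, a change in the share of cells that hold a transcript and a change in its amount per cell cannot be told apart.

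Oxidative phosphorylation passes electrons from NADH through complex I, or from succinate through complex II, to complex III and on to oxygen at complex IV, and complex V makes ATP from the proton gradient this builds. Complexes I, III, IV and V are mosaics, with a core partly encoded in mitochondrial DNA and transcribed as long polycistronic RNAs, and with the remaining subunits imported from the cytosol. Complex II is wholly nuclear. Embryonic stem cells are known to lean on glycolysis while keeping a working respiratory chain, and some subunits exist as pairs of isoforms, one broadly expressed and one confined to tissues such as muscle or testis.

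The main comparison set the 4 libraries of KO and 41585 against the 6 of WT, 41584 and 41589, with SOM left out because its processing is not labelled. Of the 105 members, 9 were higher and 11 lower in KO and 41585 at an adjusted p under 0.05 (edgeR's quasi-likelihood test, Benjamini-Hochberg adjusted over all genes tested). That is 19% of the members, where 33.5% of all genes tested were called, 17.6% higher and 15.9% lower. The median log2 fold was 0.01 over the members and −0.01 over all genes, and 56 members had a positive and 49 a negative fold. All 20 called members were nuclear. They include Cox7b2, which passed the count minimum only through KO and 41585, and Ndufa4l2, which passed it only through the other 8 libraries. The calls of these members, also with single libraries left out, are therefore not independent evidence of a difference. How many of all called genes keep the call with each library left out is not reported here. Counts as deposited gave none of the 13 mitochondrially encoded members as different, by edgeR or DESeq2, and 0 of them had an unadjusted edgeR p under 0.05.

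**Figure D1:**
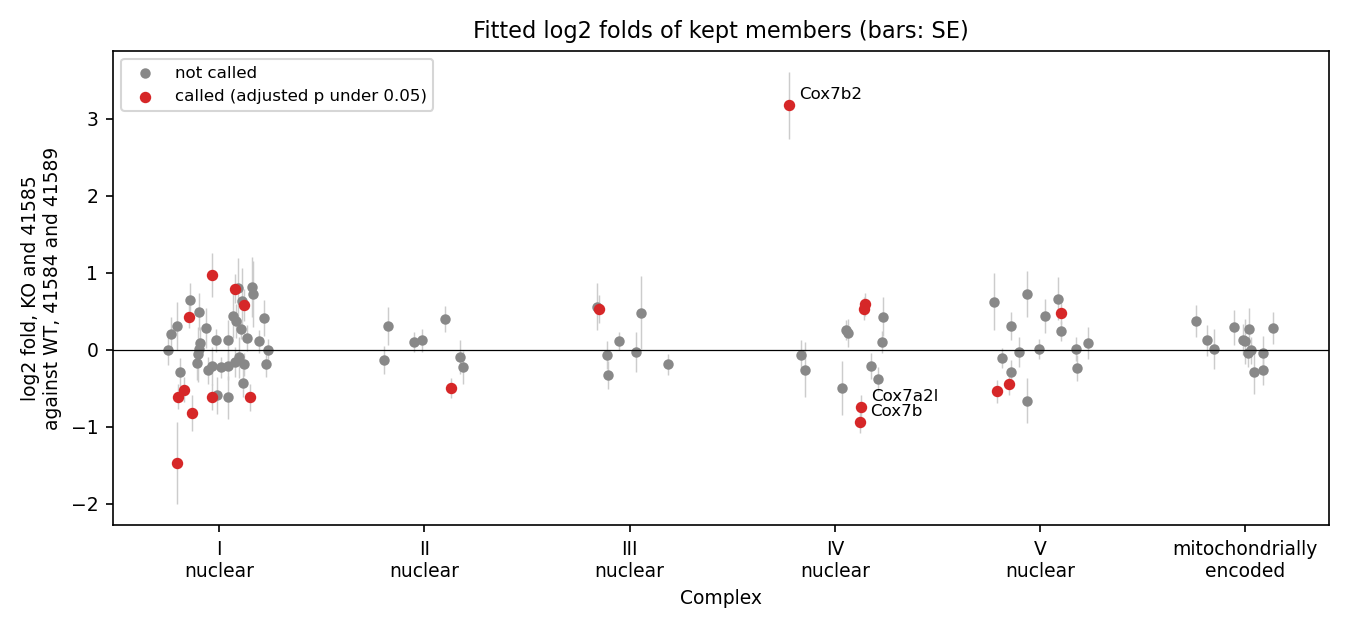
Fitted log2 folds of the 105 kept members, KO and 41585 against WT, 41584 and 41589, arranged by complex and genome along one axis with the fold on the other. Points are edgeR estimates, bars are 1 standard error, and red marks an adjusted p under 0.05: 20 members, 9 above and 11 below 0, all of them nuclear.

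Of those 20, 4 were called in every fit that left out 1 of the 12 libraries, and Cox7b, Cox7b2 and Cox7a2l were among them. The other 16 lost the call in at least 1 such fit. The members called fell to 5 without KO replicate 1, 7 without KO replicate 2 and 9 without either 41585 library, and rose to 38 without 41589 replicate 2. All genes moved with them, from 18% called without KO replicate 1 to 40.9% without 41589 replicate 2. Without both 41589 replicate 2 and 41584 replicate 2 the number was 45, or 42.9% where 47.9% of all genes were called, and 30 were higher.

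Complex IV held 3 higher and 2 lower calls among its 14 nuclear members, with Cox7b falling and its isoform Cox7b2 rising. Cox7b (ENSMUSG00000031231, chromosome X:106015700-106022450, GRCm38) encodes a small accessory subunit of complex IV, and at 143 CPM per kb of exon it was second only to Cox6b1 among the nuclear members of that complex. It stood at 229 and 198 CPM in WT, 203 and 201 in 41584, 220 and 196 in 41589, and 218 and 181 in SOM. In KO it stood at 104 and 127 CPM, and in 41585 at 106 and 96.7. The 4 libraries of KO and 41585 lay below the other 8, without overlap. The pooled log2 fold was −0.94 ± 0.14 (SE, adjusted p = 0.000396 by edgeR), and −1.0 to −0.87 with 1 library left out.

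Cox7b2 (ENSMUSG00000049387, chromosome 5:71442824-71548205) encodes the isoform known from testis. It went the other way, from low levels. Its CPM was 1.55 and 1.09 in WT, 0.767 and 0.933 in 41584, 1.07 and 0.457 in 41589, and 1.03 and 0.752 in SOM. It reached 7.93 and 2.16 CPM in KO and 9.36 and 19.7 in 41585. These rest on 14 to 153 counts in KO and 41585 and 4 to 10 in each other library. No library of KO or 41585 overlapped the rest, but KO replicate 2 lay close to WT and the 2 libraries of each of these groups differed widely. The pooled log2 fold was 3.17 ± 0.43 (adjusted p = 0.000196 by edgeR), and 2.55 to 3.50 with 1 library left out. A gene this low elsewhere is a member only because of its counts in KO and 41585, so its place among the members already implies a difference of this direction, and the p is not independent evidence of it. Per kb of exon, Cox7b2 made up 0.519 to 1.49% of the Cox7b and Cox7b2 total in the other 8 libraries. In KO it made up 14.6 and 3.65%, and in 41585 16.6 and 31.3%. Of the testis germ cell markers, Prm1 and Tnp1 had 1 count each over all 12 libraries, and the 3 markers together summed to 1.59–4.76 CPM in KO and 41585 and 0.748–3.71 in WT, 41584 and 41589.

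The promoters of both isoform genes are shown because the pair moved in opposite directions. Each runs from 250 bases before to 50 after the start site in RefSeq (GRCm38.p6), on the strand of the gene, with CpG dinucleotides in capitals. Cox7b lies at chrX:106015450-106015749 on the plus strand and Cox7b2 at chr5:71548156-71548455 on the minus strand.
Cox7b: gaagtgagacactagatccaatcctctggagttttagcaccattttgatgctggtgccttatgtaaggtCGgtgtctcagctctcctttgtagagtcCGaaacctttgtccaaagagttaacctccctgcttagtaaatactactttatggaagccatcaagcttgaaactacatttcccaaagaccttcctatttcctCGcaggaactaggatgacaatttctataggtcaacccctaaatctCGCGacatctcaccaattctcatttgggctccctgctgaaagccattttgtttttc
Cox7b2: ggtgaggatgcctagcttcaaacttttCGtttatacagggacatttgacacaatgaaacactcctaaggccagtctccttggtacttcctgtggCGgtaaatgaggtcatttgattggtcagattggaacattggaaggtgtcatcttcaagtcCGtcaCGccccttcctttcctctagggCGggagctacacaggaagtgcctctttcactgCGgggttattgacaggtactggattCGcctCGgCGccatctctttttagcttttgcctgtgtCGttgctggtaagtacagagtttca
Cox7b holds 5 CpGs in this window and Cox7b2 holds 10, against a median of 20 over 81 promoters of 76 kept members and 7 over all 32851 promoters of the table. DNA methylation was not measured.

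Cox7a2l (ENSMUSG00000024248, chromosome 17:83501918-83517330), which helps join complexes III and IV into supercomplexes, fell. It stood at 64.6 and 78.6 CPM in WT, 76.7 and 50.4 in 41584, 69.1 and 85.8 in 41589, and 75.9 and 71.4 in SOM. KO had 38.1 and 34.3 CPM and 41585 had 46.8 and 50.4. The KO libraries lay below all others, and 41585 replicate 2 met 41584 replicate 2. The pooled log2 fold was −0.75 ± 0.16 (adjusted p = 0.00393 by edgeR). Of its 50-base words, 13.8% also occur in another gene, mostly in Gm6969, so reads there may be split between the 2 genes.

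Cox6b1 and Cox5b, accessory subunits of complex IV, were higher. Cox6b1 ran from 108 to 157 CPM in KO and 41585 and from 65.4 to 131 in the 6 comparison libraries, the top of which was 41589 replicate 2 (log2 fold 0.59 ± 0.15). Cox5b ran from 70.5 to 77.1 and from 46.8 to 58.5 CPM without overlap (0.53 ± 0.15), though 11.9% of its 50-base words occur in other genes. The broadly expressed Cox4i1, Cox6a1, Cox7a2 and Cox8a had log2 folds of 0.43, 0.22, −0.38 and 0.10 and were not called. Among the tissue-restricted isoforms, Cox6b2 made up 5.04 to 15.5% of its pair per kb and Cox7a1 3.53 to 14.2%, and neither was called (−0.50 and −0.26). Cox4i2, outside the count minimum, reached at most 4.25% of the Cox4 pair, with a log2 fold of −2.49 ± 0.79 from 93 counts (adjusted p = 0.0292 by edgeR). That call was lost in 6 of 12 fits with 1 library left out, where its fold ran from −4.41 to −1.95 and the adjusted p reached 0.121 without KO replicate 1. Cox8b was at 0 in every library.

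**Figure D2:**
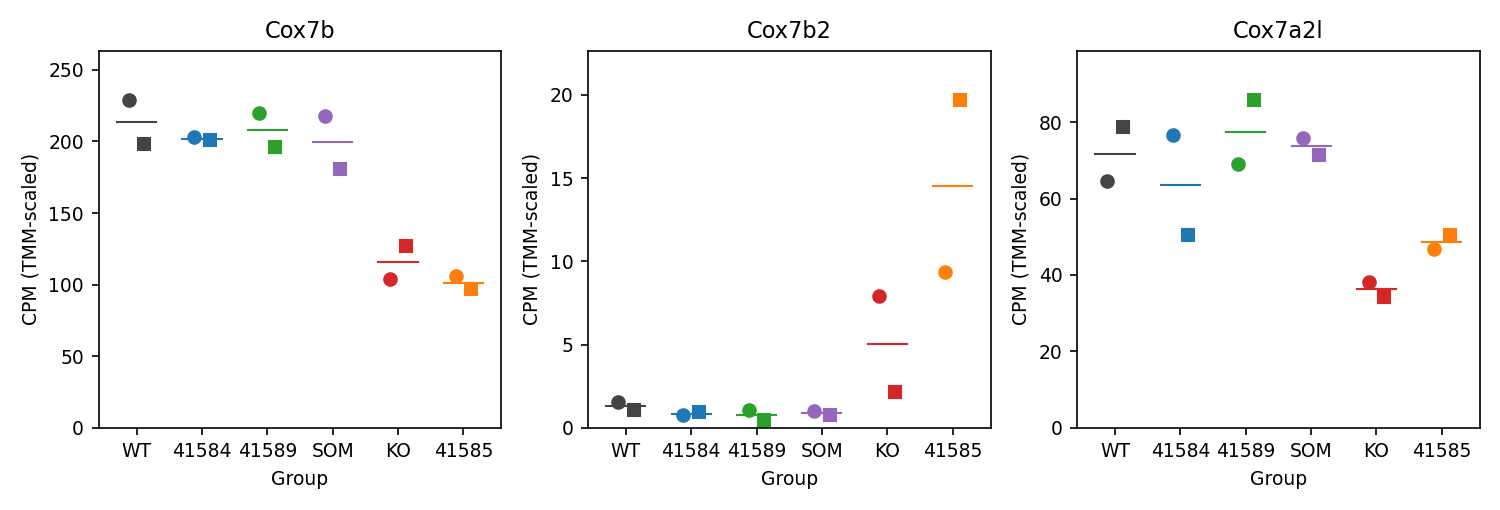
CPM of Cox7b, Cox7b2 and Cox7a2l by group, 1 panel a gene, each axis starting at 0. Circles are replicate 1, squares replicate 2 and lines the mean of 2. Cox7b shows KO and 41585 at 96.7 to 127 CPM and every other library at 181 or more, while Cox7b2 exceeds 2 CPM only in KO and 41585.

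Complex I, taken here as the genes named Nduf, held 4 higher and 6 lower calls among 45 nuclear members. The higher calls of complex I took in Ndufs8, an iron-sulfur core subunit (19.4–34.9 CPM in KO and 41585, 6.8–25 in the comparison libraries), Ndufv3 (33.1–56 and 17–45.5) and Ndufa10 (117–136 and 79.8–104). Their log2 folds were 0.97 ± 0.29, 0.58 ± 0.21 and 0.43 ± 0.15. Of these, Ndufa10 did not overlap, and for Ndufs8 and Ndufv3 the highest comparison library was 41589 replicate 2. Ndufa11 and Ndufa13 had folds as large (0.80 ± 0.39 and 0.81 ± 0.39) and were not called. Ndufa11 ranged from 5.35 to 31 CPM between the 2 libraries of 41589.

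The lower calls of complex I took in the iron-sulfur subunit Ndufv2 (88.9–96.4 CPM in KO and 41585, 106–159 in the comparison libraries), the accessory subunits Ndufc1 (20.1–26 and 28.4–37) and Ndufb10 (24.4–29.3 and 34.5–47), and the assembly factors Ndufaf2 (8.23–12.1 and 15.5–22.3) and Ndufaf4 (36.1–58.2 and 55.7–85). Their log2 folds were −0.52, −0.61, −0.61, −0.82 and −0.62. All but Ndufaf4 were without overlap. Ndufaf2 shares 64.1% of its 50-base words with other genes. Ndufa4l2, a paralog of Ndufa4 known as a hypoxia target, was low throughout (1.08–2.69 and 0.933–7.67 CPM, −1.47 ± 0.53). It passed the count minimum through the groups in which it is higher, and the 2 libraries of 41584 spanned the whole comparison range. The 2 nuclear Nduf members most abundant per kb, Ndufa4 (130 CPM per kb), named for complex I but now known as a subunit of complex IV, and Ndufb9 (89.1), had folds of 0.01 and −0.21 and were not called.

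Complex II held 1 call among 8 members. Sdhd, which anchors the complex in the membrane, stood at 81.7, 86.2, 85.9 and 83.4 CPM in KO and 41585 and at 99.5 to 130 in the comparison libraries, without overlap (log2 fold −0.50 ± 0.13, adjusted p = 0.0132 by edgeR). The flavoprotein Sdha did not pass the test (0.10). In complex III, 1 of 8 passed, the core protein Uqcrc1 (140–235 and 93.4–191 CPM, 0.53 ± 0.18), while Uqcrb (−0.33) and Uqcrc2 (−0.19) did not.

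Complex V held 1 higher and 2 lower calls among 17 members. Atp5a1, the alpha subunit of the catalytic head, ran from 1092.1 to 1436.1 CPM in KO and 41585 and from 773 to 1112.1 in the comparison libraries (0.47 ± 0.14). Atp5f1, of the peripheral stalk, ran from 232 to 309 and from 320 to 456 (−0.54 ± 0.15), with 14.3% of its 50-base words shared, and Atp5mpl, a small proteolipid, from 52.5 to 73.2 and from 77.7 to 96.8 (−0.45 ± 0.14). Both of the latter were without overlap. Atp5b, the beta subunit and at 477 CPM per kb the most abundant nuclear member, did not pass the test (0.24). The 3 genes of the c ring, Atp5g1, Atp5g2 and Atp5g3, had folds of 0.72, 0.66 and −0.24 and did not pass either.

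Over all nuclear members, the 4 and the 6 libraries did not overlap for 4 members that were higher and 8 that were lower, where 21.2% of all genes did not overlap (11.4% higher, 9.85% lower). The higher ones were Cox5b, Cox7b2, Ndufa9 and Ndufa10, of which Ndufa9 was not called. All 13 mitochondrially encoded members overlapped.

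The comparisons of single groups share libraries with one another and with the pooled one, so their values are given side by side. KO against WT called 2 members, 1.9% where 13.2% of all genes were called (7.29% higher, 5.9% lower), and both were lower: Cox7b (−0.88 ± 0.21, adjusted p = 0.0191 by edgeR) and Cox7a2l (−0.99 ± 0.25, 0.0234). Both lost the call when any 1 of the 4 libraries of KO and WT was left out. The line 41585 against 41584 called 4 members, 3.81% where 12.7% of all genes were called (7.65% higher, 5.07% lower). Of the 2 that were higher, Cox7b2 had 4.07 ± 0.72 (adjusted p = 0.0056 by edgeR), and Cox7b (−1.0 ± 0.21, 0.0128) and Atp5mpl (−0.70 ± 0.21, 0.0496) were lower. Of the 4, Cox7b2 alone was called without each library, and Cox7b had an adjusted p by edgeR of 0.0771 without 41585 replicate 1 and 0.09 without 41585 replicate 2. The line 41584 against KO called 2 members, 1.9% where 7.44% of all genes were called (2.46% higher, 4.98% lower). The sequence put back in 41584 is not labelled, so this comparison gives a difference between lines and not the effect of restored Dicer. Cox7b was higher in 41584 (0.80 ± 0.21, adjusted p = 0.0371 by edgeR) and Cox7b2 lower (−2.57 ± 0.71, 0.047). Cox7b2 is a member only through its counts in KO and 41585. Its p-values here and in 41585 against 41584, and its calls without each library, are therefore not independent evidence of these differences. Leaving out single libraries ended both calls in at least 1 fit.

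The remaining comparisons called no member and 0% of all genes by edgeR. In 41585 against KO 9 members had an unadjusted edgeR p under 0.05, in 41584 against WT 2 and in 41589 against 41584 0, and DESeq2 called none. The share of all genes at that unadjusted level is not reported here for the counts as deposited. With the GC trend removed, as described below, 8 members and 655 of 14629 genes reached it in 41585 against KO. In 41584 against WT it was 5 members and 1030 genes, and in SOM against WT 39 members and 3553 genes. A fit on the KO and 41585 libraries alone called 12 members, all higher in 41585, or 11.4% where 4.07% of all genes were called. That fit did not remove the GC trend, which was 1.01 and 0.66 in 41585 and 0.02 and −0.08 in KO. The part of the trend in these 12 calls was not tested. In SOM against WT 21 members had an unadjusted edgeR p under 0.05. DESeq2 called 3, and its share of all genes is not reported here. A fit on the SOM and WT libraries alone called 14, or 13.3% where 15.7% of all genes were called. In the main fit of SOM against WT 75 of 105 members had a positive fold, with a median of 0.28 where that of all genes was −0.03. The nuclear members of each of the 5 complexes had their highest summed level in SOM replicate 1. Replicate 2 of SOM was lower than replicate 1 for 85 of 92 nuclear members (median log2 ratio −0.31).

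As shares of all gene counts, the nuclear members took 0.883 to 1.19% and the mitochondrially encoded members 3.04 to 5.02%. The nuclear share was 0.883 and 0.915% in WT, 0.944 and 0.935% in KO, 0.999 and 0.904% in 41584, 1.1 and 1.03% in 41585, 0.914 and 1.08% in 41589, and 1.19 and 0.966% in SOM. The mitochondrial share was 5.02 and 3.35% in WT, 4.52 and 4.79% in KO, 3.16 and 4.66% in 41584, 3.74 and 3.97% in 41585, 4.08 and 3.04% in 41589, and 3.66 and 3.93% in SOM. The 2 libraries of WT lay almost as far apart in mitochondrial share as the whole set. KO and 41585 exceeded the comparison groups by 0.369 percentage points in mitochondrial share and by 0.053 in nuclear share, less than the SDs within groups (0.725 and 0.087). With 1 library left out, these differences ran from 0.0904 to 0.647 and from 0.0259 to 0.08. The log2 ratio of mitochondrial to nuclear counts differed by 0.0719, where the SD within groups was 0.358, and the difference ran from −0.0455 to 0.189 with 1 library left out.

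**Figure D3:**
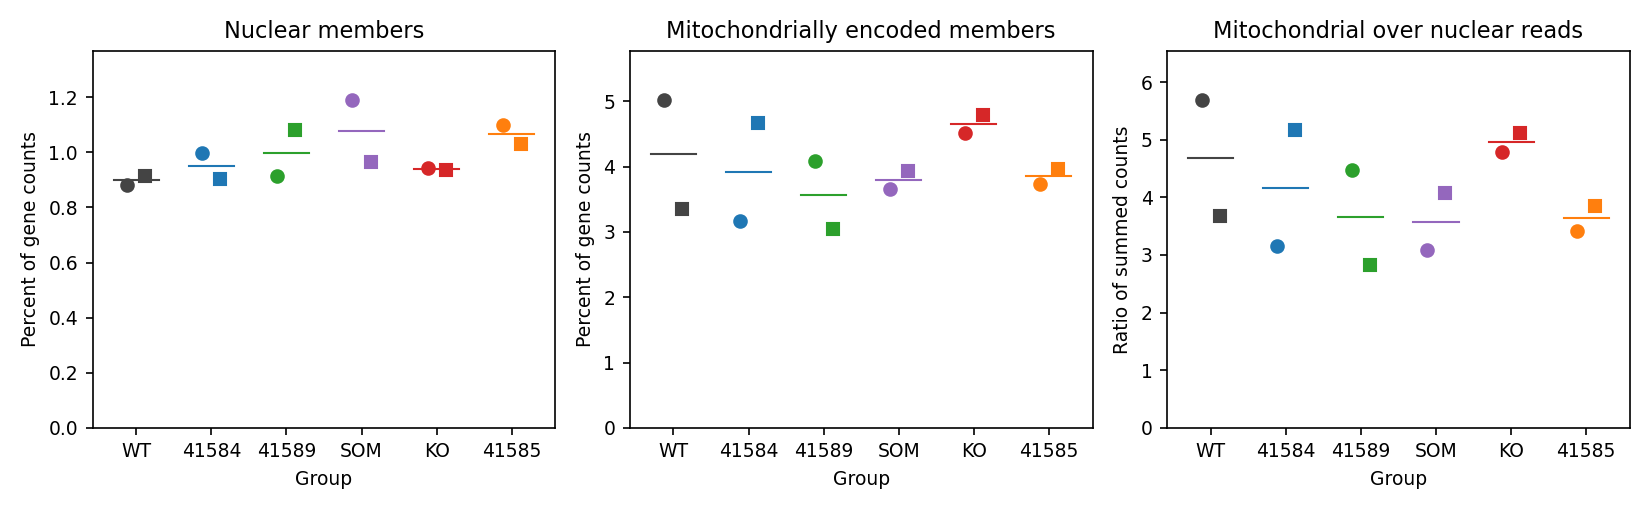
Percent of gene counts in the nuclear members (left), in the mitochondrially encoded members (middle) and the ratio of the second to the first (right), by group. Circles are replicate 1, squares replicate 2 and lines the mean of 2. The mitochondrial share differs more between the libraries of WT (5.02 and 3.35%) and of 41584 (3.16 and 4.66%) than between the groups.

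The mitochondrially encoded members moved together between libraries of 1 group. In replicate 2 all 13 were lower in WT (median log2 ratio −0.69) and in 41589 (−0.53), and 12 of 13 were higher in 41584 (0.74). In KO the median was 0.09, in 41585 0.25 and in SOM −0.10. The GC content of the genes moved with this. The GC trend of a library was taken as its log2 level, relative to the mean of all libraries, at genes of 57.4% GC minus that at genes of 41.1%. It was −0.94 and −0.26 in WT, 0.10 and −0.72 in 41584, −0.63 and 0.74 in 41589, 0.02 and −0.08 in KO, 1.01 and 0.66 in 41585, and 0.29 and −0.15 in SOM. In 6 of 6 groups the library with the lower GC trend had the higher mitochondrial share. The mitochondrially encoded members are GC-poor, from 31.9% in mt-Atp8 to 41.1% in mt-Nd4l. All 13 thus lie at or below the lower GC point of the trend, near its GC-poor edge. The nuclear members run from 36.7 to 63.3% with a median of 49.7%. Among the 92 nuclear members, those above the median GC were higher in replicate 2 of 41589 than in replicate 1 by a median of 0.67 on the log2 scale, and those below it were lower (−0.15). In the pooled comparison the GC-rich nuclear members had a median fold of 0.28 and the GC-poor ones −0.08.

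With the GC trend of each library removed, a step chosen after seeing the data, 6 of the 13 mitochondrially encoded members were higher in KO and 41585. Of all 14629 genes 36.4% were called in that fit, 2790 higher and 2530 lower. Of complex I, 4 of the 7 subunits were called, with mt-Nd1 at a log2 fold of 0.75 ± 0.13 (adjusted p = 0.00115 by edgeR), mt-Nd4 at 0.69 ± 0.14 (0.00327), mt-Nd2 at 0.53 ± 0.12 (0.00445) and mt-Nd3 at 0.68 ± 0.23 (0.0359). The other 2 were mt-Cytb of complex III (0.64 ± 0.17, 0.0112) and mt-Atp6 of complex V (0.50 ± 0.16, 0.0313). Their folds with the counts as deposited were 0.37, 0.28, 0.13, 0.27, 0.29 and 0.12, and none was called. Of the 6, mt-Atp6, mt-Nd3 and mt-Nd4 share 99.5, 98.0 and 62.2% of their 50-base words with other genes. The number called higher ran from 4 to 9 of 13 with 1 library left out. mt-Co1, the catalytic subunit of complex IV, had −0.04 without and 0.29 ± 0.10 with the removal and narrowly missed the threshold (adjusted p = 0.0505 by edgeR), as did mt-Nd5 (0.34 ± 0.13, 0.0523).

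For mt-Nd1 (chromosome M:2751-3707), the levels after removal were 4794 and 4165.6 CPM in WT, 4951.7 and 7280.8 in 41584, and 6110.8 and 5967.3 in 41589. They were 9073.5 and 9037.9 in KO, 9755.9 and 9117.8 in 41585, and 8743.1 and 6684.6 in SOM. KO and 41585 lay above the comparison libraries without overlap. As deposited, the range of 7164.3–9372.9 CPM in KO and 41585 lay within the 4588.7–9719.3 of those libraries. After removal 9 of the 13 did not overlap, all higher, where 25.8% of all genes did not overlap (13.5% higher, 12.3% lower). SOM is outside this count. Its replicate 1 reached the range of KO and 41585 for mt-Atp6, mt-Atp8, mt-Cytb, mt-Nd2, mt-Nd3 and mt-Nd4. It lay below that range for mt-Nd1, mt-Co1 and mt-Nd5, and replicate 2 lay below it for all 9. The median fold of the 13 was 0.45 in the pooled comparison and 0.43 in SOM against WT, where none was called. In KO against WT, 5 of the 13 were called higher, with mt-Nd1 at 1.02 ± 0.21. Of all 14629 genes 18.5% were called there, 1482 higher and 1223 lower. In 41585 against 41584 none was called with the trend removed, where 12.1% of all genes were called. An unadjusted edgeR p under 0.05 was reached by 3 of the 13 and by 4386 of all 14629 genes. The median of the 13 folds turned from −0.23 to 0.36. The trend was high in both 41585 libraries and near 0 in both of KO, so whether it belongs to the preparation of the libraries or to the RNA of the cells cannot be told apart.

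**Figure D4:**
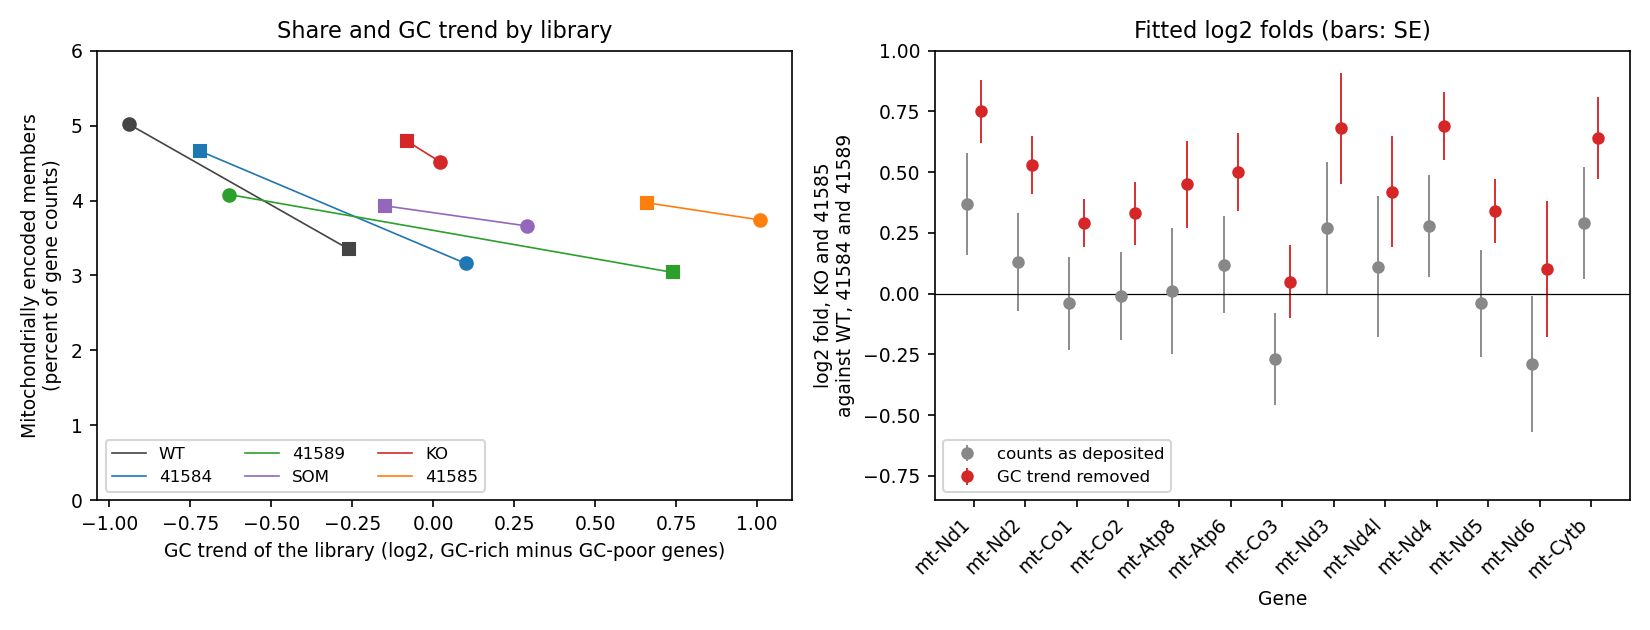
Left, percent of counts in the mitochondrially encoded members against the GC trend of the library (log2), with a line joining the 2 libraries of a group (circle replicate 1, square replicate 2); each of the 6 lines falls to the right. Right, log2 folds of the 13 mitochondrially encoded members, KO and 41585 against WT, 41584 and 41589, from counts as deposited (grey) and with the GC trend removed (red), bars 1 standard error; mt-Nd1 moves from 0.37 to 0.75.

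Removing the trend left 14 of the 20 nuclear calls in place, where 4241 of the 4906 genes called as deposited stayed called. Cox7b2 was among the 14, and as a member only through its counts in KO and 41585 its p is again not independent evidence. The same holds for Ndufa4l2, also among the 14, which passed the count minimum only through the other 8 libraries. Cox7b had −0.68 ± 0.13 (adjusted p = 0.0023 by edgeR), Cox7b2 3.53 ± 0.40 (7.65e-05) and Cox7a2l −0.79 ± 0.14 (0.00116), and these 3 were again called without each library. Atp5a1 (0.23), Atp5f1 (−0.18), Ndufa10 (0.30), Ndufaf4 (−0.29), Ndufc1 (−0.41) and Ndufv2 (−0.24) were no longer called. Ndufa9 (0.32), Cox7c (0.57), Ndufs4 (0.36), Ndufa12 (−0.68) and Cox7a2 (−0.49) were called in that fit alone. In 41585 against 41584 Cox7b did not pass with the trend removed (−0.59 ± 0.20, adjusted p = 0.0755 by edgeR).

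The levels of the mitochondrially encoded members differed widely from one another per kb of exon. mt-Co1 stood at 11025.9 CPM per kb, mt-Nd1 at 7468.7, mt-Cytb at 5131.0, mt-Nd2 at 3459.3, mt-Nd5 at 2038.1 and mt-Nd4 at 1817.3. At the other end, mt-Co2 stood at 179, mt-Atp6 at 160, mt-Co3 at 123, mt-Nd3 at 36.7 and mt-Nd4l at 32.4. These 5 low genes share 98.0 to 100.0% of their 50-base words with unprocessed pseudogenes at chromosome 1:24611535-24616197, a stretch of mitochondrial DNA carried in the nuclear genome. Their levels therefore cannot be read as those of the transcripts where reads that map to both places were dropped or split, and the labels do not say how such reads were counted. The copies had more counts than the genes: Gm28661 had 16485 against 11071 for mt-Co2, Gm10925 21069 against 9788 for mt-Atp6, and Gm28437 14667 against 8714 for mt-Co3. mt-Nd1 and mt-Cytb share no 50-base word with another gene. mt-Atp8 (120) and mt-Nd6 (93.5) were also low and share none with another annotated gene. Sequence outside annotated exons was not searched. mt-Atp8 starts between mt-Co2 and mt-Atp6, both of which have copies in that stretch of chromosome 1, so an unannotated copy of it may exist there. mt-Nd6 is the member encoded on the other strand of the mitochondrial genome.

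The start of mt-Co2 and of its copy is shown because the bases do not tell the genes apart (GRCm38, each on its own gene's strand, mt-Co2 at chrM:7013-7072 and Gm28661 at chr1:24615506-24615565).
mt-Co2: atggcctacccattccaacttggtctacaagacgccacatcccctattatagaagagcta
Gm28661: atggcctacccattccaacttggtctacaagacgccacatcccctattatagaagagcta

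**Figure D5:**
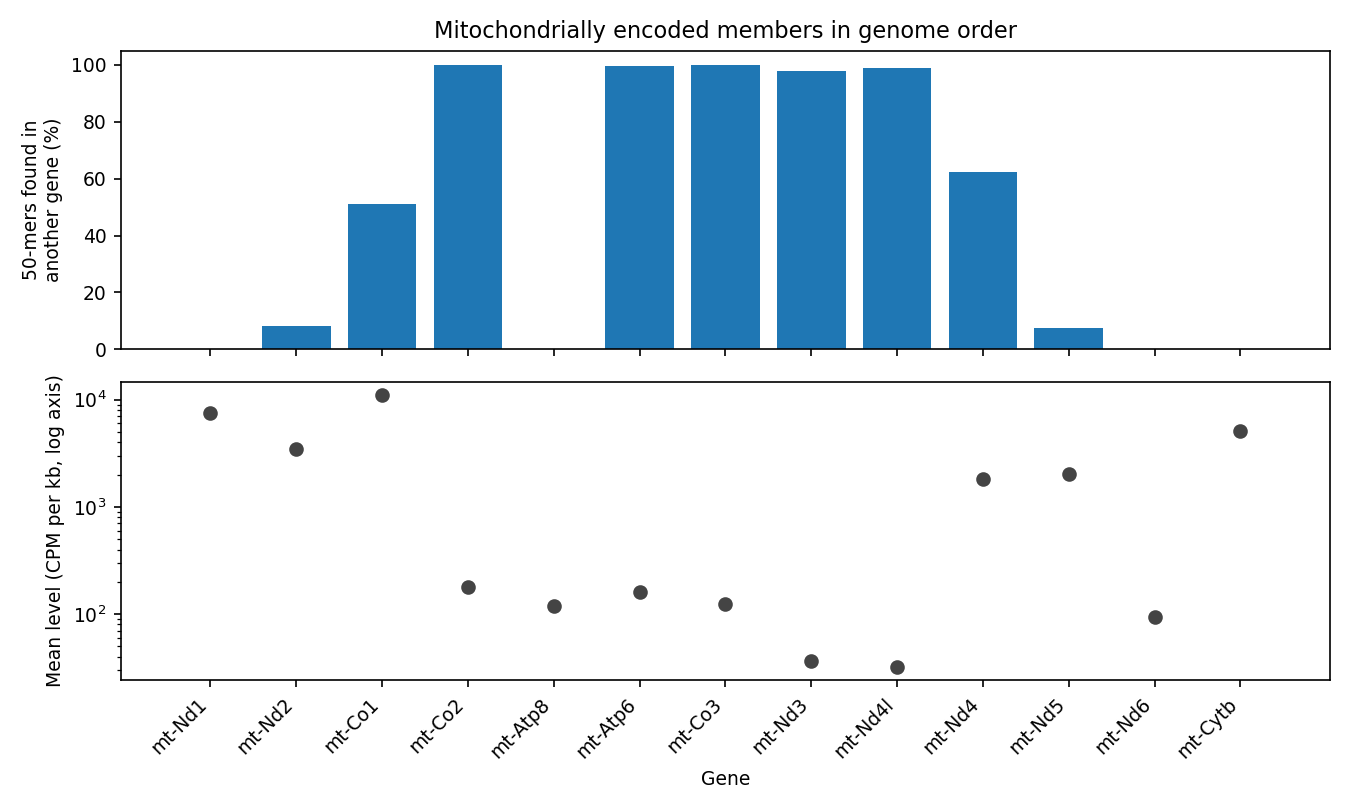
For the 13 mitochondrially encoded members in genome order, the percent of 50-base words found in another annotated gene (top) and the mean CPM per kb over 12 libraries (bottom, log axis). The 5 members at 98.0% or more (mt-Co2, mt-Atp6, mt-Co3, mt-Nd3, mt-Nd4l) lie between 32.4 and 179 CPM per kb, and mt-Co1, at 51.1%, is the highest at 11025.9.

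Nuclear members have been tied to the factors NRF1, YY1 and the ETS protein GABP, so 81 promoters of 76 kept members were searched for their core words on both strands. The palindromic NRF1 word, GCGCA followed at once by its reverse complement, was in 7 promoters (8.64%) against 0.971% of all promoters of the same length. The word holds CpGs, and all promoters were not matched to the members' for CpG content (median 7 against 20). The part of CpG content in this difference was not tested. The 7 promoters hold the word in 7 members. These members are Atp5g2, Atp5k, Cox6a1, Ndufa11, Ndufaf4, Ndufaf5 and Uqcrc1, of which Uqcrc1 was higher, Ndufaf4 lower and 5 not called. AAGATGG, for YY1, was in 12.3% against 6.34%, and GGAAG, for ETS proteins, in 70.4% against 71.4%.

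The miRNAs most abundant in embryonic stem cells share a seed, bases 2 to 8, given in capitals here for 2 of them from RefSeq. It pairs with AGCACTT in a 3′ UTR.
mmu-miR-294-3p: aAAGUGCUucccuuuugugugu
mmu-miR-302b-3p: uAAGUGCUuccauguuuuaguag
Of 91 kept members with an annotated 3′ UTR of at least 50 bases (GENCODE M21), 5 (5.49%) hold this word, against 17.7% of 12890 tested genes. The UTRs of the members are short, with a median of 235 bases against 1192. Cox7b, Cox7b2 and Cox7a2l hold none. Sdhd holds 1, at base 10 of its 728-base UTR, shown because it is the one member with the word called from the counts as deposited. The word is in capitals.
Sdhd: cctgggtgcAGCACTTtgattgtgtgc
Sdhd was lower in KO and 41585. Atp5g1, Ndufb2, Ndufb8 and Ndufs4 were not called from the counts as deposited, and Ndufs4 was called higher with the GC trend removed (0.36).

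Around the complexes, the lists of other mitochondrial genes were mixed in direction, and their shares called are to be read against the 33.5% of all genes called in this comparison. Of 33 tested assembly factors outside the members' names, 2 were higher and 6 lower in KO and 41585 (24.2% called, median log2 fold 0.04), with Cox20, which handles a newly made core subunit of complex IV, at −1.66 ± 0.35. Of 15 genes for transcription and replication of mitochondrial DNA, 1 was higher and 5 lower (40% called, −0.17). Tfam, which packages and activates that DNA, fell from 72.0–94.7 CPM in the comparison libraries to 34.7–54.5 (−0.98 ± 0.14, adjusted p = 0.000377 by edgeR), and the elongation factor Tefm was higher (1.20 ± 0.15, 0.000136). Of 15 genes of mitochondrial RNA processing 2 were higher and 3 lower (33.3%, 0.03), with Fastkd1 at −1.19 and Grsf1, of the RNA granules, at 0.70. Of 21 genes of the tricarboxylic acid cycle and its entry 3 were higher and 1 lower (19%, 0.04), the higher ones being citrate synthase Cs (1.02), Mdh2 (1.05) and Ogdh (0.76). Electron carriers and coenzyme Q synthesis had 3 higher and 2 lower of 16 (31.2%, 0.23), with Etfdh at 0.51 and Coq2 at −0.68. Mitochondrial ribosomal proteins had 7 and 6 of 77 (16.9%, 0.02), and nuclear regulators 0 and 1 of 9 (11.1%, 0.18, Gabpa at −0.48). Uncoupling and exchange had no call among 5 (0.23), with Slc25a5, the ADP/ATP carrier, at 0.38.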

How the data were processed

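Poly(A) RNA of 12 libraries was prepared with TruSeq reagents by a reverse-stranded protocol, per the labels' protocols, and aligned with STAR 2.4.2a to mm10 (GRCm38), per the submitters' processing notes. The table the authors deposited gives raw counts as whole numbers for each Ensembl gene in each library. For the counting program, its strand setting and its treatment of reads with several matches: not given in the sources used here. GENCODE M21 gave symbols to 47224 rows and left 419 without one. Columns were matched to libraries by the sample descriptions.

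Differences were tested with edgeR 4.0.16 in R 4.3.3 (quasi-likelihood, robust, TMM scaling, filterByExpr, 1 mean per group, all 12 libraries). The common biological coefficient of variation was 0.278, with 6 residual degrees of freedom. Folds are log2 values ± SE with a prior count of 0.125, and p-values were adjusted by Benjamini-Hochberg over 14629 genes in each of 8 comparisons. Each SE, also in the figures, is the absolute fold divided by the square root of the quasi-likelihood F, and is not an estimate given by the fit itself. Levels per kb use the union of annotated exons. Shares are of all gene counts, and no column was left without a sample. The scripts were tested on simulated data.

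The GC trend was a lowess fit (span 0.3) of each library's log2 deviation on transcript GC over 14596 genes, removed through offsets, after which the coefficient of variation was 0.236. Shared sequence was counted as exact words of 50 bases in annotated exons. The members, lists, markers and comparisons were chosen with earlier results of these data known. Removing the GC trend, adding the nuclear copies to the mitochondrial share and leaving out members with 10% or more shared words were chosen after seeing the data.

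Named members are those called in any comparison, all mitochondrially encoded ones, the 2 nuclear members of each complex highest per kb, the tissue isoform pairs, the 3 members on either side of the count minimum and the 3 largest folds each way at 5 CPM or more. Of other lists, up to 4 genes of smallest adjusted p may be named. The counts take in every kept member, but 1 member's own values are not reported here. Ndufa9, Cox7c, Ndufa12 and Ndufs4 were named after their values were seen. Alternatives were DESeq2 1.42.0, other scalings, no count filter, fits on the compared groups alone, a replicate block and leaving libraries out. Same-numbered libraries deviated together (correlation above 0.1) in 5 of 15 pairs of groups, so replicate numbers were not used as pairs. The 2 libraries of a group differed by more than sampling noise in each of the 6 groups.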

Additional observations from a re-analysis of the deposited data

How the results depend on the processing

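In the pooled comparison the 20 members called became 21 with DESeq2, 25 without the count filter, 18 with the compared groups alone, 19 with SOM added to the comparison groups, 25 with the GC trend removed and 45 without 41584 replicate 2 and 41589 replicate 2 together. For KO against WT, the 2 became 7 without the filter, 16 with the compared groups alone, 12 without those 2 libraries and 9 with the GC trend removed. For 41585 against 41584, the 4 became 10 with DESeq2, 15 without the filter and 1 with the compared groups alone. For 41584 against KO, the 2 became 0 with the compared groups alone and 7 without the 2 libraries. None became 12 with the compared groups alone in 41585 against KO, and in SOM against WT none became 3 with DESeq2, 8 without the filter, 14 with the compared groups alone and 15 without the 2 libraries. All genes shifted too. With the compared groups alone, the share of genes called was 35.9% for KO against WT, 3.01% for 41585 against 41584 and 2.92% for 41584 against KO. With the GC trend removed it was 36.4% in the pooled comparison and 18.5% for KO against WT. For the DESeq2, unfiltered and replicate-block fits, and for single-group comparisons with libraries left out, the share of all genes is not reported here. Those counts of members therefore do not show a shift of the members apart from all genes. The cause of these shifts was not tested.

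With each library left out in turn, the members called ran from 5 to 38 in the pooled comparison, 0 to 4 in KO against WT, 1 to 20 in 41585 against 41584, 0 to 2 in 41584 against KO, 0 to 1 in SOM against WT and 0 to 0 in the other 3. Of the 41585 against 41584 fits, those without 41589 replicate 1 and replicate 2 gave 20 and 17, those without a 41585 library 1, and those without 41584 replicate 2 or any KO, WT or SOM library 2. KO against WT gave 0 without any KO or WT library and 4 without any 41584 or 41589 library. For 41584 against KO the count was 0 without 41584 replicate 1, KO replicate 1, 41585 replicate 2 or either WT library, and 1 without KO replicate 2, 41585 replicate 1 or either SOM library. A library left alone in its group was taken to spread as the remaining groups do.

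With the replicate block the counts were 22 in the pooled comparison, 3 in KO against WT, 4 in 41585 against 41584, 2 in 41584 against KO and 0 in the others. Among folds of single members, no direction that had been called reversed: 2111 values kept their side of the threshold, 149 lost it and 71 gained it. The differences in nuclear and mitochondrial share moved by less than the SD within groups in each alternative run. A minimum of 60 counts kept 107 members and one of 240 counts 105. Leaving out the members with 10% or more shared words left 16 of the 20 pooled calls, 8 higher and 8 lower. Depth limits the low members most: Cox7b2 rests on 369 counts in all, and counts of nuclear copies limit mt-Co2, mt-Atp6, mt-Co3, mt-Nd3 and mt-Nd4l. For mt-Atp8, an unannotated nuclear copy was not searched for.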
